A study of Mus musculus with 14 samples.

Results

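The AP-1 factors Fos, Fosb, Fosl1, Fosl2, Jun, Junb, Jund and Atf3 were followed through 14 RNA-seq libraries of subcutaneous mouse tumours. These 8 genes were selected by symbol as a family, at a time when fold changes of the same libraries were known, and their rows were found through their Ensembl mouse identifiers among the 37409 genes of the count table. All 8 were among the 17141 genes that passed the filter on low counts. The differences of these genes between any of the groups are therefore not independent of how they were picked. Counts of members past a threshold are given as a description beside the share of all genes, with no p-value of a single member printed.

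AP-1 is a family of transcription factors that bind DNA as pairs joined by a leucine zipper. Fos proteins need a Jun partner to bind stably, Jun proteins can also pair with each other, and Atf3 pairs with itself or with Jun proteins. Several of these genes are immediate early genes, whose RNA appears briefly after growth factors, stress or injury, without new protein synthesis. In melanoma and other tumours the family is known for its part in growth, invasion and changes of cell state.

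All groups were tumours of B16F10 cells, a mouse melanoma line, inoculated under the skin of the hind limb flank of C57BL/6 mice, according to the treatment protocol. A separate label calls the cells CT26, which is a colon carcinoma line, so the labels disagree. The untreated group was taken on day 0 (n = 3). The others were taken on day 7 after 1 intratumoral injection, given at a tumour size near 150 mm3, of D5W (n = 3), of 2E'/PTX with siNeg (n = 4) or of 2E'/PTX with siPD-L1 (n = 4). The labels do not spell out D5W, 2E' or PTX, and the study's title names paclitaxel and an immunoactive polymer. The 3 day 7 groups are called D5W, siNeg and siPD-L1 here. No group received nothing for 7 days, so day and injection cannot be told apart in any comparison with day 0, and polymer, drug and siRNA cannot be told apart in comparisons with D5W. The labels give neither age nor sex, and do not say that each library came from its own mouse, so the spread between replicates may be partly technical. Groups given 2E' alone or 2E'/PTX alone, which the protocol lists, were not analysed here.

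Total counts ran from 60166278 to 85941309 a library. The 7 melanocyte markers, Dct, Tyrp1, Tyr, Pmel, Mlana, Mitf and Sox10, were all detected and summed to between 17000 and 21100 CPM (counts scaled to library size) in every library, while the 7 intestinal epithelial markers summed to between 7.05 and 9.8 CPM. The markers thus went with the melanoma line of the protocol and against the colon carcinoma label. D5W replicate 3 stood farthest from day 0 on the first principal component of all genes, and siPD-L1 replicate 1 had 13.9% of its counts in ribosomal RNA-like genes, against 0.517% to 1.14% elsewhere. Cd274, which encodes PD-L1, was at 17.6 to 31.6 CPM in siNeg and at 15.8 to 20.8 CPM in siPD-L1. That difference, a log2 fold change of −0.51 ± 0.16 (SE), did not pass edgeR's quasi-likelihood test (adjusted p = 0.515), so the siRNA target does not check the labels.

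The upstream 250 bases of Fos, Fosb, Jun and Atf3 are shown as examples of textbook immediate early members of the family. They come from RefSeq promoter windows on GRCm38.p6, read 5′ to 3′ on the strand of the gene and ending just before the RefSeq start. Capitals mark TGACG, the core of the cyclic AMP response element (printed as CGTCA where it lies on the other strand), the related TGACATCA of Jun, and TATAAA, the TATA box.
Fos, chr12:85473640-85473889, plus strand: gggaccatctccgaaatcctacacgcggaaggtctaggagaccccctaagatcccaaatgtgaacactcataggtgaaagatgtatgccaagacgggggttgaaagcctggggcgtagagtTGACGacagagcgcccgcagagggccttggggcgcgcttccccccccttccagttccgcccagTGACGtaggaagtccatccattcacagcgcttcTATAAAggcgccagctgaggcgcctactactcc
Fosb, chr7:19310046-19310295, minus strand: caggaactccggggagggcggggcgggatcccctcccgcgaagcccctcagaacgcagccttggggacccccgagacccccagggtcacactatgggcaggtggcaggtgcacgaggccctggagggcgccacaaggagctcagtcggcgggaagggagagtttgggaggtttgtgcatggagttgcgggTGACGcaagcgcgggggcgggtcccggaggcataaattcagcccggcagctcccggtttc
Jun, chr4:95052223-95052472, minus strand: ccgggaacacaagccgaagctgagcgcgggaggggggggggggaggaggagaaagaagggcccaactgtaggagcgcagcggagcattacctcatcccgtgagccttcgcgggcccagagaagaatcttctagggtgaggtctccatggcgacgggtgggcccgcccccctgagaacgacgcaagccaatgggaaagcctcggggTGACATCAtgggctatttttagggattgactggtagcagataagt
Atf3, chr1:191183334-191183583, minus strand: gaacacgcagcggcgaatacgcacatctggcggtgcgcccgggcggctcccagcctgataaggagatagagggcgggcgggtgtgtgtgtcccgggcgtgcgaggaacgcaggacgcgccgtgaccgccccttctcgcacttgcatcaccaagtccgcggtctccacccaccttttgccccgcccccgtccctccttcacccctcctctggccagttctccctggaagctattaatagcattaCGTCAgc

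Windows were found for 7 of the 8 genes, all but Fosl1. Both strands of the 250 bases were searched for each motif. TGACG lay 129 to 125 and 66 to 62 bases before the start of Fos, 60 to 56 bases before that of Fosb, 106 to 102 bases before that of Junb and, on the other strand, 7 to 3 bases before that of Atf3. It was in 17.8% of all 32851 windows. TATAAA lay 33 to 28 bases before the start of Fos, and was in 12.4% of all windows. TGACATCA lay 45 to 38 bases before the start of Jun, and was in 2.93% of all windows. The CCAAT box lay in the windows of Jun and Junb, and in 33.8% of all windows. GGGCGG, the core of an Sp1 site, lay in the windows of Fos, Fosb, Fosl2, Jun and Atf3, and in 32.7% of all windows. The letters TGACTCA (the AP-1 site, in 4.46% of all windows), TGACGTCA (the full cyclic AMP response element, which contains TGACG, in 1.55%) and the CArG box of serum response factor (in 1.47%) were in none of the 7 windows. Sequence outside the windows was not searched, so these genes may carry such sites farther away. Of the 7 RefSeq starts, only those of Fos and Jun match the gene starts in the annotation used for the counts here. Those of Fosb, Fosl2, Junb, Jund and Atf3 differ, and the windows of Fosl2 and Atf3 lie inside the annotated genes. The Jund window held none of the motifs searched.

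Fos (ENSMUSG00000021250, GRCm38 chromosome 12, 85473890 to 85477273, plus strand, 4 exons) encodes the founding Fos protein. At day 0 it was at 545, 502 and 597 CPM. It was at 601, 801 and 350.4 CPM in D5W. In siNeg it was at 1667, 1316, 1081 and 884 CPM, and in siPD-L1 at 637, 615, 1065 and 1434 CPM. All siNeg and siPD-L1 libraries were above all day 0 libraries, whereas D5W straddled day 0, its replicate 3 being the lowest Fos value of the 14. The log2 fold change from day 0 was 0.09 ± 0.34 (SE) in D5W, 1.17 ± 0.33 in siNeg and 0.78 ± 0.33 in siPD-L1. Apart from the scarce Fosl1 in D5W, Fos had the highest coefficient of variation of the 8 genes in each day 7 group, 38.7%, 27.2% and 41.6% in D5W, siNeg and siPD-L1, against 8.68% at day 0.

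Fosb (ENSMUSG00000003545, chromosome 7, 19302696 to 19310051, minus strand, 4 exons) encodes another immediate early Fos protein, whose shortened splice form is long lived in brain. Its 3 day 0 values were 70.4, 99.2 and 90.5 CPM. The D5W libraries held 874, 929 and 853 CPM. The siNeg values were 989, 870.3, 1070 and 867 CPM, and the siPD-L1 values 941, 514, 573.5 and 931 CPM. The lowest day 7 library (514 CPM) was far above the highest day 0 library (99.2 CPM). Fosb was 10.2-fold higher in D5W (log2 fold change 3.35 ± 0.22), 10.9-fold in siNeg (3.45 ± 0.22) and 8.53-fold in siPD-L1 (3.09 ± 0.21), which put it at rank 44, 27 and 44 from the top of all 17141 fold changes. It had the highest fold of the 8 genes in each of these comparisons. In siPD-L1 its 4 libraries fell into a higher and a lower pair, and the group's coefficient of variation was 30.8%, against 4.47% in D5W. The counts do not separate the splice forms of the gene.

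Fosl2 (ENSMUSG00000029135, chromosome 5, 32135801 to 32157842, plus strand, 4 exons) encodes Fra-2, a Fos-related protein without the strong activation domain of Fos. It was at 52.8, 53.0 and 46.7 CPM at day 0. It was at 205, 181 and 198 CPM in D5W. It was at 118, 122, 124 and 179 CPM in siNeg, and at 186, 170.2, 86.1 and 147 CPM in siPD-L1. Every day 7 library was above every day 0 library, and the D5W libraries were above all 4 siNeg libraries. Its log2 fold change from day 0 was 1.94 ± 0.23 in D5W, 1.42 ± 0.21 in siNeg and 1.53 ± 0.22 in siPD-L1.

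Fosl1 (ENSMUSG00000024912, chromosome 19, 5447547 to 5455946, plus strand, 4 exons) encodes Fra-1, a Fos-related protein known for its place in invasive and mesenchymal-like tumour cells. It was the scarcest member, with 20 to 131 counts a library. Its level was 0.364, 0.452 and 0.330 CPM at day 0. It was 0.899, 0.632 and 1.68 CPM in D5W, against 0.405, 0.595, 0.408 and 0.377 CPM in siNeg and 0.716, 0.487, 0.253 and 0.425 CPM in siPD-L1. The D5W libraries were above all day 0 and all siNeg libraries, while siNeg and siPD-L1 overlapped day 0. In D5W its log2 fold change from day 0 was 1.49 ± 0.39, and without D5W replicate 3 it was 1.01 and no longer called. It was 0.23 ± 0.38 in siNeg and 0.30 ± 0.38 in siPD-L1. Fibroblast markers moved with Fosl1 in D5W: the 6 genes Col1a1, Col1a2, Col3a1, Dcn, Pdgfra and Lum summed to 538, 93.2 and 821 CPM in its replicates 1, 2 and 3, the same order as Fosl1, against 102 to 138 CPM at day 0, 50.7 to 150.0 CPM in siNeg and 54.1 to 314 CPM in siPD-L1. None of the 6 was called in any comparison with day 0, and their part in the Fosl1 values was not tested. In bulk tumour RNA, more cells of a type and more RNA per cell cannot be told apart, for this gene or any other here.

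**Figure D1:**
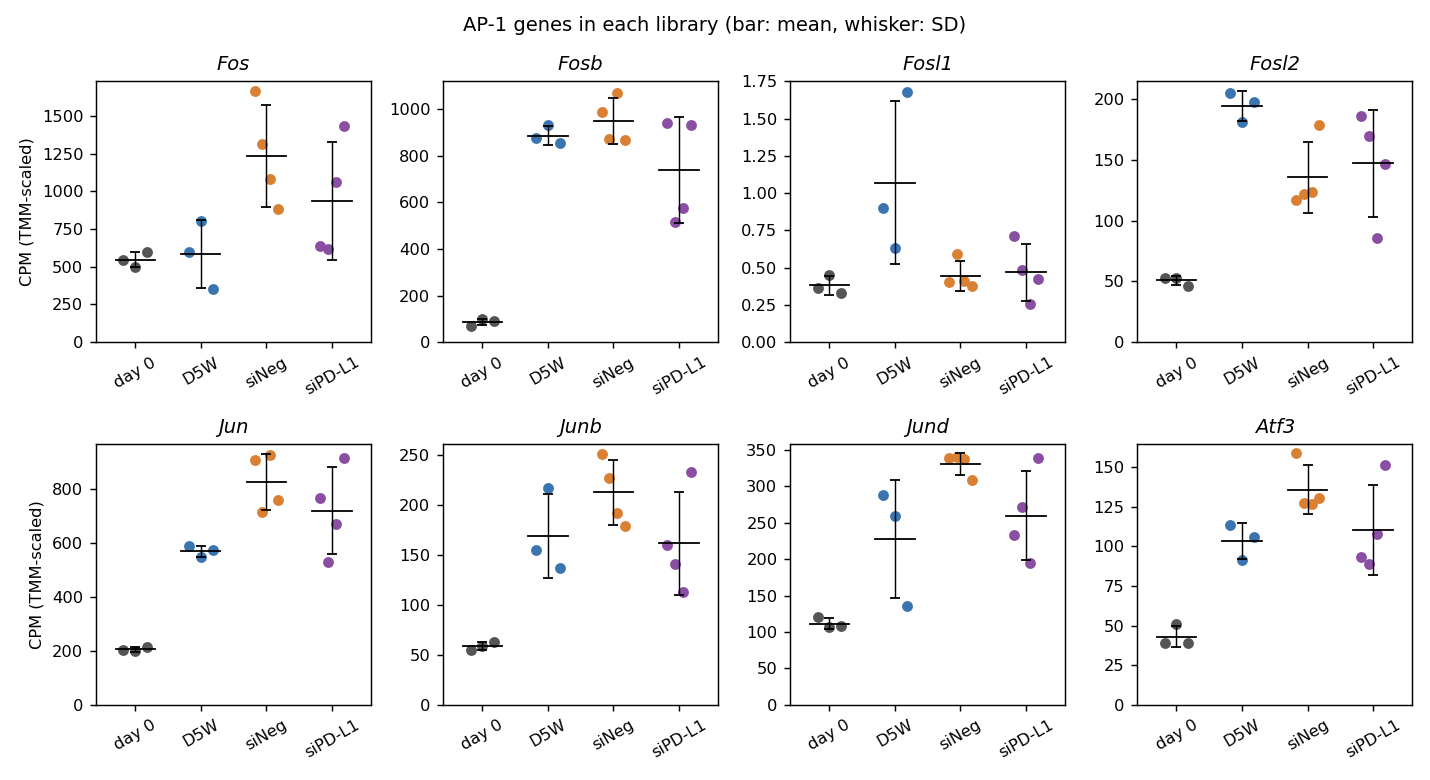
Level of each AP-1 gene in every library, in CPM (y axis, linear, from 0), by group (x axis); each point is 1 library, the bar is the group mean and the whisker 1 SD. Fosb, Fosl2, Jun, Junb, Jund and Atf3 have all day 7 points above all day 0 points, Fos has D5W points among those of day 0, and Fosl1 has its highest points in D5W. The share of all genes that stand apart from day 0 in this way was not counted, so nothing is read from these separations.

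Jun (ENSMUSG00000052684, chromosome 4, 95049034 to 95052222, minus strand, a single exon) encodes c-Jun, a strong activator whose protein is phosphorylated by the JNK kinases. It was at 203, 198 and 216 CPM at day 0. It was at 586, 546 and 573 CPM in D5W. The siNeg libraries held 905, 714, 922.5 and 758 CPM, and the siPD-L1 libraries 765, 528, 668 and 913 CPM. The day 7 libraries were all above day 0, and every siNeg library was above every D5W library. The log2 fold change from day 0 was 1.47 ± 0.16 in D5W, 2.00 ± 0.15 in siNeg and 1.80 ± 0.15 in siPD-L1, the smallest standard errors of the family. With a coefficient of variation of 4.44% at day 0 and 3.6% in D5W, Jun was also the least variable of the 8 genes in these groups.

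Junb (ENSMUSG00000052837, chromosome 8, 84974484 to 84978718, minus strand, a single exon) encodes a Jun protein that is a weaker activator than c-Jun and can hold it back. It was at 55.1, 58.5 and 62.6 CPM at day 0 and at 154.5, 216 and 136 CPM in D5W. It was at 251, 226.5, 192 and 179 CPM in siNeg. In siPD-L1 it was at 159, 141, 113 and 233 CPM. All day 7 libraries were above day 0, and the 3 day 7 groups overlapped each other. Relative to day 0, Junb had a log2 fold change of 1.53 ± 0.23 in D5W, 1.85 ± 0.22 in siNeg and 1.46 ± 0.22 in siPD-L1.

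Jund (ENSMUSG00000071076, chromosome 8, 70698949 to 70700616, plus strand, a single exon) encodes the Jun protein that is usually present in resting cells and least inducible. It was at 120.2, 107 and 108 CPM at day 0. It was at 288, 259.6 and 136 CPM in D5W. It was at 339, 340.1, 337 and 308 CPM in siNeg, and at 233, 272, 195 and 339 CPM in siPD-L1. The siNeg libraries were above all D5W libraries, and D5W replicate 3 was the day 7 library nearest to day 0. Relative to day 0, Jund had a log2 fold change of 1.03 ± 0.23 in D5W, 1.57 ± 0.22 in siNeg and 1.22 ± 0.22 in siPD-L1, and it was 1.29 in D5W without replicate 3.

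Atf3 (ENSMUSG00000026628, chromosome 1, 191170296 to 191218039, minus strand, 4 exons) encodes a stress-induced factor of the integrated stress response and of DNA damage, which as a pair with itself mostly represses. It was at 39.2, 50.7 and 39.3 CPM at day 0. It was at 114, 91.3 and 106 CPM in D5W. It was at 159, 127, 127 and 130.3 CPM in siNeg, and at 93.2, 88.7, 108 and 151 CPM in siPD-L1. The day 7 groups were all above day 0, and siNeg was above D5W in every library. For Atf3 the log2 fold change from day 0 was 1.27 ± 0.18 in D5W, 1.66 ± 0.17 in siNeg and 1.36 ± 0.17 in siPD-L1.

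The span of a neighbour on the opposite strand overlapped that of 5 of the genes in the annotation. Whether the exons of such pairs overlap was not checked. The strand setting of the counting is not given in the sources used here. Reads in bases that a pair shares, if any, may therefore not have been told apart. For Jun the neighbour was the antisense gene Junos, at 1.21 ± 0.085 CPM (SD) at day 0 and 3.65 ± 0.66 CPM in D5W. For Junb it was Prdx2, a peroxiredoxin gene, at 237 ± 13.1 CPM at day 0 and 168 ± 31.0 CPM in D5W, the opposite direction to Junb. Ccdc85b, beside Fosl1, was at 15.3 ± 1.94 CPM at day 0 and 10.1 ± 2.68 CPM in D5W, which is higher than Fosl1 itself. Jund overlapped the antisense Gm11175, at 1.25 ± 0.049 CPM at day 0, 2.00 ± 1.09 CPM in D5W and 3.25 ± 0.685 CPM in siNeg. In D5W replicate 3 Gm11175 was at 0.860 CPM, below all day 0 libraries. Atf3 overlapped the small RNA gene Gm24748.

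Levels of different genes were compared per exonic length, as RPKM, that is, reads scaled to exonic kilobases and to library size. At day 0 the order was Fos at 233 ± 20.2 RPKM (SD, n = 3), Jund at 67.0 ± 4.44, Jun at 64.5 ± 2.86, Junb at 25.5 ± 1.64, Atf3 at 20.0 ± 3.08, Fosb at 13.9 ± 2.36, Fosl2 at 5.25 ± 0.375 and Fosl1 at 0.188 ± 0.031 RPKM. Among neighbours in this order, those whose means ± 1 SD overlapped were Jund and Jun. In D5W the order was Fos at 248 ± 96.0, Jun at 178 ± 6.42, Fosb at 142 ± 6.34, Jund at 136.5 ± 48.4, Junb at 73.5 ± 18.2, Atf3 at 48.1 ± 5.25, Fosl2 at 20.1 ± 1.28 and Fosl1 at 0.527 ± 0.268 RPKM. There the neighbours Fos and Jun, Fosb and Jund, and Jund and Junb were within 1 SD of each other's range, and Fosb had moved from the sixth place to the third. In siNeg the order was Fos at 526 ± 143, Jun at 259 ± 32.8, Jund at 198.5 ± 9.18, Fosb at 152 ± 15.8, Junb at 92.2 ± 14.2, Atf3 at 63.0 ± 7.17, Fosl2 at 14.02 ± 3.00 and Fosl1 at 0.219 ± 0.049 RPKM (n = 4), with no neighbours within 1 SD. The siPD-L1 order was the same, with Fos at 399 ± 166, Jun at 225 ± 50.8, Jund at 156 ± 36.8, Fosb at 118.5 ± 36.5, Junb at 70.2 ± 22.3, Atf3 at 51.2 ± 13.2, Fosl2 at 15.2 ± 4.54 and Fosl1 at 0.231 ± 0.094 RPKM. In siPD-L1 each pair of neighbours from Fos down to Atf3 was within 1 SD. Fos stood at rank 160 of the 17141 genes by RPKM at day 0 and at rank 49 in siNeg, and Fosb at rank 3470 and 218.

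The make-up of the Fos family differed between day 0 and day 7. Of the summed RPKM of Fos, Fosb, Fosl1 and Fosl2, Fos held 92.3% ± 1.29 (SD) at day 0, 58.9% ± 9.43 in D5W, 75.3% ± 5.08 in siNeg and 73.6% ± 9.01 in siPD-L1. Fosb held 5.54% ± 1.13 at day 0, 35.8% ± 7.86 in D5W, 22.6% ± 4.39 in siNeg and 23.2% ± 7.73 in siPD-L1. The lowest Fosb share of a day 7 library was 16.6% and the highest of a day 0 library 6.76%. The family sum was 252 ± 19.4 RPKM at day 0, 411 ± 101 in D5W, 692 ± 145 in siNeg and 533 ± 179 in siPD-L1. The Jun family kept a more even make-up: Jun held 41.1% at day 0 and 46.7%, 47.0% and 50.1% in D5W, siNeg and siPD-L1, Jund 42.7% and 34.4%, 36.2% and 34.6%, and Junb 16.3% and 18.9%, 16.8% and 15.3%. Its sum was 157 ± 4.56 RPKM at day 0, 388 ± 58.7 in D5W, 549 ± 43.9 in siNeg and 451 ± 98.2 in siPD-L1. These shares are of RNA and do not give the share of protein pairs.

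**Figure D2:**
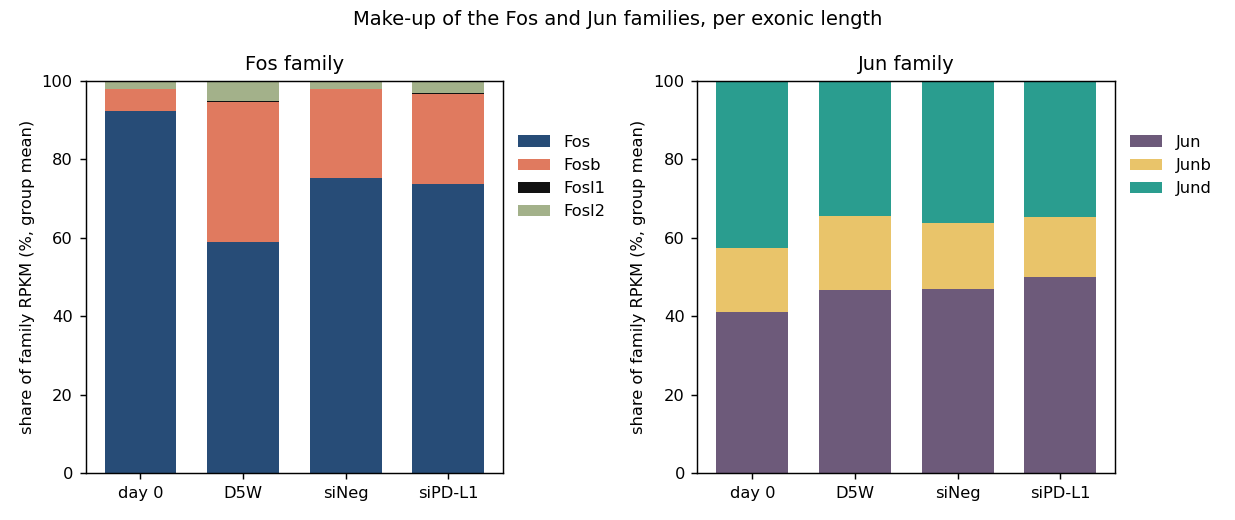
Share of each gene in the summed RPKM of its family (y axis, percent), by group (x axis, group means), for the Fos family and the Jun family. Fosb is 5.54% of the Fos family at day 0 and 35.8% in D5W, while the shares of Jun, Junb and Jund differ less between groups.

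Against day 0, 7 of the 8 genes were called higher in D5W (all but Fos), 7 in siNeg (all but Fosl1) and 6 in siPD-L1 (all but Fos and Fosl1), at an adjusted p under 0.05 in edgeR's quasi-likelihood test over all genes. None was called lower. Of all tested genes, 11.8% were called higher and 9.69% lower in D5W, 10.5% and 7.91% in siNeg, and 11.5% and 10.4% in siPD-L1. Since the genes were picked with these comparisons known, nothing is read from the contrast with that background. How many of all genes had ranges apart from those of day 0 was not counted. The separations from day 0 given above for single genes are therefore a description too. The 3 comparisons share the same day 0 libraries. The median log2 fold change of the 8 genes was 1.48 in D5W, 1.61 in siNeg and 1.41 in siPD-L1, where that of all genes was 0.0025, 0.0065 and 0.0144. The call of Fos in siNeg was lost when day 0 replicate 1, 2 or 3 or siNeg replicate 1 was left out (log2 fold change 1.17, 1.11, 1.24 and 0.98), and that of Fosl1 in D5W when day 0 replicate 1 or 3 was (1.45 and 1.38). With scaling by library totals alone, 1982 genes were called higher and 379 lower in D5W, against 2030 and 1661, 1262 and 512 in siNeg, against 1802 and 1356, and 1087 and 990 in siPD-L1, against 1968 and 1788. That scaling called 0 higher and 22 lower between siNeg and D5W, against 4 and 14, and 0 and 60 between siPD-L1 and D5W, against 0 and 5.

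**Figure D3:**
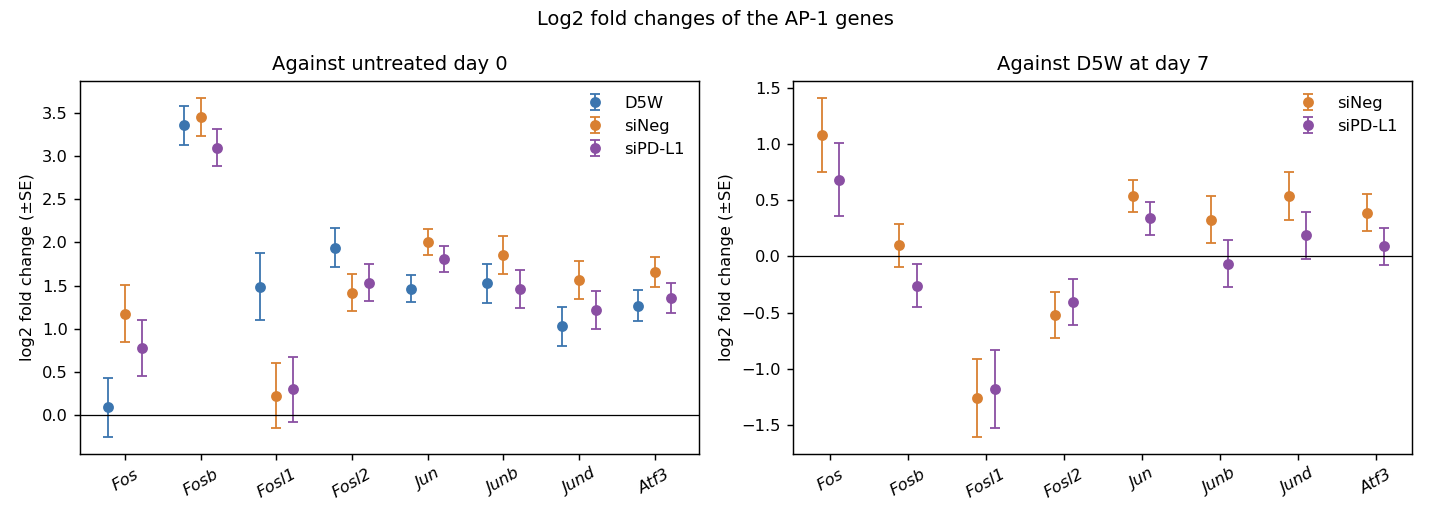
Log2 fold change (y axis; whisker, 1 SE) of each AP-1 gene (x axis) against day 0 for D5W, siNeg and siPD-L1 (left) and against D5W for siNeg and siPD-L1 (right). Fosb stands apart on the left with 3.09 to 3.45, and on the right most values lie within 1 log2 unit of 0, Fos in siNeg (1.08) and Fosl1 in both groups (−1.26 and −1.18) lying beyond it.

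Among the marker sums of other cells, only the endothelial ones stood apart between day 0 and day 7 libraries. The macrophage, neutrophil, T and NK cell, fibroblast, skeletal muscle and keratinocyte sums overlapped. The 5 endothelial genes Pecam1, Cdh5, Kdr, Vwf and Emcn summed to 28.5 to 37.3 CPM at day 0 and to 45.5 to 67.9 CPM at day 7, and 4, 1 and 2 of the 5 were called higher in D5W, siNeg and siPD-L1. The same comparisons had 11.8%, 10.5% and 11.5% of all tested genes called higher. The 5 erythroid genes summed to 127 to 983 CPM at day 0 and to 9.1 to 350.0 CPM at day 7, ranges that overlapped, with none of the 5 called. The share of counts in mitochondrial genes was 3.23% to 15.2% at day 0 and 2.66% to 7.5% at day 7, which overlapped too. The part of these markers and of the mitochondrial share in the AP-1 values was not tested.

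Between siNeg and D5W, which differ in the polymer, drug and siRNA, none of the 8 genes was called by edgeR, where 0.105% of all genes were. Unadjusted p-values under 0.05 were found for 6 of the 8, where 14.9% of all genes had one, with Fos, Jun, Jund and Atf3 higher and Fosl1 and Fosl2 lower in siNeg. The DESeq2 Wald test also had 6 of the 8 at an unadjusted p under 0.05, against 15.8% of all genes, and called 2, Jun (log2 fold change 0.53) and Fosl1 (−1.27), against 2.68% of all genes. In edgeR the log2 fold change was 1.08 ± 0.33 for Fos, 0.54 ± 0.14 for Jun, 0.54 ± 0.21 for Jund, 0.39 ± 0.16 for Atf3, 0.33 ± 0.21 for Junb and 0.10 ± 0.19 for Fosb. It was −0.52 ± 0.20 for Fosl2 and −1.26 ± 0.35 for Fosl1. The CPM ranges of the groups did not overlap for those same 6 genes, against 14.3% of all tested genes. The genes were picked with results of these libraries known. Nothing is therefore read from the contrasts with all genes, here or in the other comparisons of day 7 groups. The fibroblast marker sums given above were higher than in all siNeg libraries in D5W replicates 1 and 3 (538 and 821 CPM). In D5W replicate 2 (93.2 CPM) the sum lay within the siNeg range of 50.7 to 150 CPM. Their part in the Fosl1 difference was not tested.

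Between siPD-L1 and D5W none was called, with 0.0292% of all genes called. Unadjusted p-values under 0.05 were found for 2 of the 8 in edgeR, where 8.02% of all genes had one. DESeq2 had 3 of the 8, against 8.36% of all genes, and called none, where it called 1.09% of all genes. The log2 fold change was 0.68 ± 0.32 for Fos, 0.34 ± 0.14 for Jun, 0.19 ± 0.21 for Jund, 0.09 ± 0.16 for Atf3, −0.07 ± 0.21 for Junb, −0.26 ± 0.19 for Fosb, −0.40 ± 0.20 for Fosl2 and −1.18 ± 0.35 for Fosl1. No gene of the 8 had ranges that did not overlap, where 5.74% of all genes had. The comparisons of siNeg and siPD-L1 with D5W share the D5W libraries.

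Between siPD-L1 and siNeg, which differ in the siRNA, edgeR called none of the 8 and 0% of all genes, with 0 of the 8 and 8.58% of all genes at an unadjusted p under 0.05. DESeq2 had 2 of the 8 at an unadjusted p under 0.05, against 9.18% of all genes, and called none of the 8 and 0.338% of all genes. The log2 fold change was −0.40 ± 0.30 for Fos, −0.39 ± 0.19 for Junb, −0.36 ± 0.18 for Fosb, −0.35 ± 0.19 for Jund, −0.30 ± 0.15 for Atf3, −0.20 ± 0.13 for Jun, 0.12 ± 0.19 for Fosl2 and 0.08 ± 0.34 for Fosl1. The ranges of the 2 groups overlapped for all 8 genes, with 5.74% of all genes not overlapping. The siPD-L1 group was the more spread, replicate 4 being at or above the siNeg median for Fos, Fosb, Jun, Junb, Jund and Atf3, and replicates 2 and 3 low for Fosb.

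Some members varied together among replicates of a group. After group means were subtracted, log2 CPM over the 14 libraries gave Pearson's r of 0.79 for Fosb and Jun. It was 0.66 for Fos and Junb, 0.65 for Junb and Jund and 0.61 for Jun and Atf3. Next came 0.6 for Fosb and Junb, 0.57 for Fos and Jund and 0.54 for Fosl1 and Fosl2. Fos went against the Fos-related pair, with −0.61 for Fosl1 and −0.55 for Fosl2. D5W replicate 3 had both the lowest Fos (350.4 CPM) and the highest Fosl1 (1.68 CPM) of the 14 libraries. Fosl1 had only 20 to 131 counts a library, and r was not computed without that replicate. These libraries share their depth and composition, so the values are a description without a test.

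The 2 protein-coding genes outside the family most like each member, by Pearson's r of log2 CPM over the same 14 libraries, were found as follows, with r after subtracting group means in second place. For Fosb they were Rgs2 (0.987 and 0.71), a regulator of G protein signalling, and Btg1 (0.985 and 0.532), an antiproliferative gene. Rgs2 was at 4.83 CPM at day 0 and at 32.9, 34.3 and 30.4 CPM in D5W, siNeg and siPD-L1. Jun was nearest to Aste1 (0.97 and 0.821) and Btg3 (0.959 and 0.459), Junb to the clock gene Per1 (0.964 and 0.818) and the RNA-binding factor gene Zfp36l1 (0.964 and 0.747), and Jund to Rhob (0.978 and 0.942), a small GTPase gene, and Pramef8 (0.966 and 0.832). Atf3 was nearest to Kctd12 (0.959 and 0.602) and Klf6 (0.947 and 0.676), a zinc finger factor gene. Fosl2 was nearest to Lmna (0.982 and 0.882), the lamin A gene, and Dusp14 (0.979 and 0.915), a phosphatase gene. Fosl1 was nearest to Slit3 (0.945 and 0.907) and Col6a3 (0.94 and 0.929), a collagen gene, and Fos to Zc3h10 (0.913 and 0.901) and Fam160a2 (0.886 and 0.749).

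Other genes of the pathway were taken as 5 lists, and 48 of their 50 genes were tested. The lists were chosen with earlier results of these data known, so their counts and adjusted p-values are given as a description. Of the 12 bZIP partner factors, 2, 4 and 1 rose in D5W, siNeg and siPD-L1 against day 0 and none fell, with median log2 fold changes of 0.19, 0.27 and 0.14. Of all tested genes, 11.8%, 10.5% and 11.5% were called higher, and 9.69%, 7.91% and 10.4% lower. Mafk, a small Maf protein, rose by 0.95 ± 0.13 (adjusted p = 0.000435), 0.92 ± 0.13 (adjusted p = 0.000371) and 0.73 ± 0.13 (adjusted p = 0.0016) in the edgeR quasi-likelihood test. Creb5, a factor of the cyclic AMP response element family, rose by 1.53 ± 0.37 in D5W (adjusted p = 0.0119) and 1.33 ± 0.35 in siNeg (adjusted p = 0.019). The small Maf genes Maff (0.66 ± 0.16, adjusted p = 0.0127) and Mafg (0.23 ± 0.06, adjusted p = 0.0222) rose in siNeg.

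Of the 12 MAP kinase genes listed, 10 were tested. Map3k8, the kinase also called Tpl2 that acts upstream of ERK, rose in all 3 comparisons with day 0, by 1.17 ± 0.21 in D5W (adjusted p = 0.00213), 1.51 ± 0.20 in siNeg (adjusted p = 0.000293) and 1.19 ± 0.20 in siPD-L1 (adjusted p = 0.00132). It was scarce, at 1.21 ± 0.189 CPM (SD) at day 0 and 2.71 ± 0.513, 3.42 ± 0.49 and 2.74 ± 0.50 CPM at day 7. The other calls were small: Mapk3, which encodes ERK1, fell by 0.30 in D5W (adjusted p = 0.0469), and Mapk14 (p38 alpha, 0.22, adjusted p = 0.0309) and Mapk9 (JNK2, 0.23, adjusted p = 0.043) rose in siNeg. In D5W 1 of the 10 was called higher and 1 lower, in siNeg 3 and 0, and in siPD-L1 1 and 0. Of all tested genes, 11.8%, 10.5% and 11.5% were called higher in these comparisons, and 9.69%, 7.91% and 10.4% lower. The list's medians were 0.08, 0.13 and 0.14.

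Among the 6 regulators of the serum response, Elk4, a ternary complex factor that binds with serum response factor, rose by 0.48 ± 0.07 in D5W, 0.38 ± 0.07 in siNeg and 0.30 ± 0.07 in siPD-L1 (adjusted p = 0.000846, 0.00232 and 0.00699). Elk3, a ternary complex factor that mostly represses, fell by 0.34 ± 0.07, 0.35 ± 0.07 and 0.43 ± 0.07 (adjusted p = 0.00748, 0.00374 and 0.0011). Srf itself rose in siNeg (0.46 ± 0.14, adjusted p = 0.0413). Of the 5 genes of AP-1 turnover, Det1, a part of the ubiquitin ligase that removes c-Jun, fell by 0.43, 0.44 and 0.46 (adjusted p = 0.00949, 0.0058 and 0.00429). Fbxw7, another c-Jun ligase gene, rose in D5W (0.42 ± 0.12, adjusted p = 0.0246), and Itch, a ligase gene acting on Jun proteins, rose in siPD-L1 (0.23 ± 0.07, adjusted p = 0.0381), but with the GC and length trend removed the Itch value was −0.04. Of the 6 serum response genes, 1, 2 and 1 were called higher in D5W, siNeg and siPD-L1, and 1, 1 and 1 lower. For the 5 turnover genes these counts were 1, 0 and 1 higher and 1, 1 and 1 lower. Of all tested genes, 11.8%, 10.5% and 11.5% were called higher, and 9.69%, 7.91% and 10.4% lower. The medians of these lists were 0.18, 0.19 and 0.07 for the serum response and 0.07, 0.06 and 0.13 for turnover.

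The 15 textbook AP-1 target genes did not move as a block: 5 rose and 2 fell in D5W, 3 rose and 2 fell in siNeg, and 4 rose and 2 fell in siPD-L1, with medians of 0.07, 0.32 and 0.14. Beside this, 11.8%, 10.5% and 11.5% of all tested genes were called higher and 9.69%, 7.91% and 10.4% lower. Ptgs2, the inducible cyclooxygenase gene, was at 2.17 ± 0.217 CPM (SD) at day 0 and at 20.96 ± 8.21, 14.3 ± 6.34 and 14.8 ± 7.4 CPM in D5W, siNeg and siPD-L1, log2 fold changes of 3.27 ± 0.51, 2.72 ± 0.48 and 2.77 ± 0.49 (adjusted p = 0.00146, 0.00303 and 0.00248). Il6, a cytokine gene, was at 0.0799 ± 0.0336 CPM at day 0, which is 4 to 8 counts a library, and at 2.71 ± 1.71, 0.630 ± 0.26 and 0.761 ± 0.505 CPM at day 7 (adjusted p = 0.000857, 0.0157 and 0.00847). Areg, the amphiregulin gene of an EGF receptor ligand, had 2 counts in each day 0 library and 15 to 164 counts in the day 7 libraries (adjusted p = 0.0025, 0.00553 and 0.00331). Cells of more than 1 type express these 3 genes, and their source in the tumours was not tested.

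Hbegf, another EGF receptor ligand gene, rose in D5W (0.74 ± 0.20, adjusted p = 0.0182) and siPD-L1 (0.57 ± 0.19, adjusted p = 0.0418), and Mmp3, a metalloproteinase gene, rose in D5W (1.48 ± 0.48, adjusted p = 0.0402). Ccnd1, the cyclin D1 gene, fell by 0.26 ± 0.08, 0.45 ± 0.07 and 0.42 ± 0.07 (adjusted p = 0.033, 0.00131 and 0.00181). Spp1, the osteopontin gene, fell in D5W (0.68 ± 0.22, adjusted p = 0.043), and Timp1, a metalloproteinase inhibitor gene, fell in siNeg (0.38 ± 0.12, adjusted p = 0.042) and siPD-L1 (0.44 ± 0.12, adjusted p = 0.0202). Over the 5 lists, the calls of Mafk, Map3k8, Areg and Ptgs2 held in each of 23 alternatives in all 3 comparisons. The calls of Elk3 and Det1 in D5W and siNeg and of Elk4 in siPD-L1 were lost with library totals only and held in the other 22. Those of Elk4 and Il6 in D5W and of Elk4 and Ccnd1 in siNeg also held in each of the 23. So did those of Il6, Ccnd1, Elk3 and Det1 in siPD-L1. The remaining calls did not hold in every alternative. In D5W, the calls that held in the fewest of the 23 alternatives were those of Mapk3 (6), Spp1 (9), Mmp3 (12), Ccnd1 (15), Fbxw7 (17), Hbegf (18) and Creb5 (19); all 7 were lost without day 0 replicate 1, and all but Ccnd1 without D5W replicate 3. Without day 0 replicate 2 or 3 or D5W replicate 1, Mapk3, Mmp3, Spp1 and Ccnd1 were lost, with Hbegf in the first case and Fbxw7 in the second, and without D5W replicate 2 Ccnd1 and Spp1. In siNeg, Mapk9 held in 8, Timp1 in 12, Mapk14 and Srf in 14, Mafg in 17, Creb5 and Il6 in 19 and Maff in 22. Mapk9 was lost without any 1 of the 3 day 0 libraries or without siNeg replicate 1, 3 or 4, and Mapk14 without day 0 replicate 1 or 2 or the same siNeg libraries. Timp1 was lost without any 1 of the day 0 or siNeg libraries, Srf without any 1 of them but siNeg replicate 3, and Il6 without any 1 of the day 0 libraries. Creb5 and Mafg were lost without day 0 replicate 1 or 3 or siNeg replicate 4, and Maff without day 0 replicate 3. In siPD-L1, Hbegf held in 10, Itch in 11 and Timp1 in 20 of the 23. All 3 were lost without day 0 replicate 1 or 2, Hbegf also without day 0 replicate 3 or siPD-L1 replicate 1, 2 or 4, and Itch without siPD-L1 replicate 1 or 3.

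**Figure D4:**
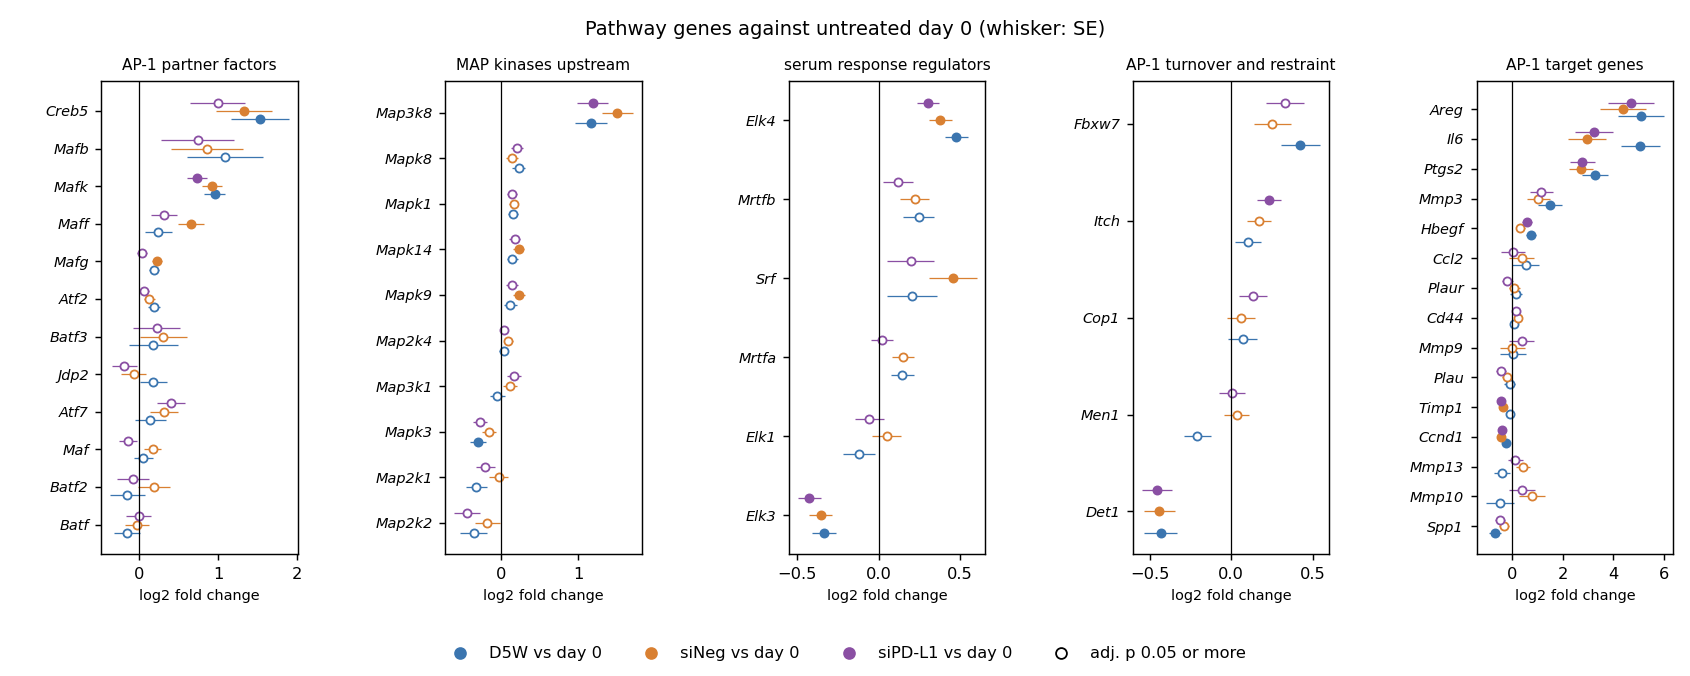
Log2 fold change against day 0 (x axis; whisker, 1 SE) of the tested genes of 5 pathway lists in D5W, siNeg and siPD-L1; filled points passed the adjusted p threshold of 0.05. Most points lie near 0, and Areg, Il6 and Ptgs2 stand far to the right among the target genes.

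Between the day 7 groups no gene of the 5 lists was called by edgeR. At an unadjusted p under 0.05 were 10 of 48 in siNeg against D5W, 8 in siPD-L1 against D5W and 3 in siPD-L1 against siNeg. Of all tested genes, 14.9%, 8.02% and 8.58% had such a p in the same order, and 0.105%, 0.0292% and 0% were called. Without D5W replicate 2, edgeR called Il6 lower in siNeg than in D5W. DESeq2 called 1 lower in siNeg against D5W, Il6, and none in the other comparisons. It called 2.68% of all genes in siNeg against D5W, 1.09% in siPD-L1 against D5W and 0.338% in siPD-L1 against siNeg. Of the target genes, Il6 had the smallest p in both comparisons with D5W, with a log2 fold change of −2.10 ± 0.55 in siNeg (adjusted p = 0.124) and −1.83 ± 0.54 in siPD-L1 (adjusted p = 0.296).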

How the data were processed

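RNA was extracted with a Qiagen kit and libraries were made with a stranded TruSeq protocol, per the labels' protocols. FastQC 0.11.3, STAR, featureCounts and edgeR were used with GRCm38, per the submitters' processing notes. The values used were the authors' deposited counts, unnormalized reads per gene. Symbols, places and exonic lengths came from GENCODE M21 for 37386 of the 37409 genes.

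CPM and RPKM were computed from the counts with edgeR 4.0.16 (R 4.3.3) after TMM scaling. Genes were filtered by filterByExpr, which left 17141. All 14 libraries entered 1 quasi-likelihood fit with a coefficient per group, and p-values were adjusted by Benjamini-Hochberg over all 17141 genes. Log2 CPM used a prior count of 2. An edgeR adjusted p under 0.05 was a call, the biological coefficient of variation was 16.6%, and total counts were 60166278 to 85941309 a library. The fit was tested on simulated data first. Members and lists were chosen with earlier results of these data known. Named were the 8 members, the called genes of each list (up to 4 by p, others where few) and the 2 genes most like each member. Replicates differed by more than sampling noise. Alternatives were DESeq2 1.42.0, its size factors, library totals, no filter, a replicate block, the 2 groups alone, removal of mitochondrial and ribosomal RNA-like genes or of a GC and length trend (limma 3.58.1), and leaving out each library; leaving out both D5W replicate 3 and siPD-L1 replicate 1 was chosen after seeing the data.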

Additional observations from a re-analysis of the deposited data

Results flagged for a closer look

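In the groups of 4 libraries, the gap of the highest or lowest library to its neighbour, divided by the range of log2 CPM, was set against Dixon's 95% critical value for each of the 8 genes, 16 groups in all. Chance passes it in about 1 in 20 groups. All 3 that passed were in siNeg. Fosl2 had a high value in replicate 4 (179 CPM, ratio 0.873), Jund a low value in the same replicate (308 CPM, ratio 0.910), and Atf3 a high value in replicate 1 (159 CPM, ratio 0.874).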

How the results depend on the processing

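Over 23 alternatives, the number of the 8 genes called stayed within 1.5 times that reported in each of the 6 comparisons, with 1 exception: the DESeq2 Wald test called 2 genes between siNeg and D5W, where edgeR called 0. Of 1104 log2 fold changes of members under an alternative, none changed sign while called, 11 lost a call and 3 gained one. Same-numbered samples of different groups shared only a number (correlations of their deviations −0.322 to 0.248). With the replicate block 7, 6 and 6 genes were called against day 0 in D5W, siNeg and siPD-L1, Fos in siNeg being lost (1.13), and 0 in each comparison between day 7 groups. Fos in siNeg was also lost with library totals only (1.20) and with no low-count filter (1.15), and Jund in D5W with no low-count filter (1.03). Without D5W replicate 3 and siPD-L1 replicate 1 Fos was called in siPD-L1 (0.92). For list genes, 156 of 989 values lost the call, and Itch in siPD-L1 turned to −0.038 with the GC and length trend removed. The causes were not tested. Depth limits genes with few counts, Fosl1, Il6 and Areg among them.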
